A study of Canis lupus familiaris with 8 samples.

Results

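The genes described here are the nuclear genes of the mitochondrial respiratory chain and ATP synthase, taken by symbol as rows that begin with NDUFA, NDUFB, NDUFC, NDUFS, NDUFV, UQCR, COX4 to COX8 or ATP5 and that do not lie on the mitochondrial chromosome. Of 24580 genes in the tables, 62 matched and 60 held at least 20 reads summed over the 8 libraries. The study sequenced mRNA from the pituitary and the adrenal cortex of adult dogs of 2 breeds, the Chinese Field Dog and the Beagle, after chronic stress or without it, to compare the breeds' response along the pituitary-adrenal axis. There was 1 library for each combination. These were the stressed Chinese Field Dog pituitary, the unexposed Chinese Field Dog pituitary, the stressed Beagle pituitary and the unexposed Beagle pituitary, and the same 4 combinations in adrenal cortex. The labels call the stressed animals exposed and the others non-disposal, which the design text equates with a normal control. What the stress was, how many dogs were pooled and whether both glands came from the same dog are not given in the sources used here, so a p-value reflects the scatter among these libraries, which may not be that between animals.

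Mitochondria make ATP by passing electrons from NADH through complex I, complex III and complex IV, which pump protons out of the matrix, while complex V, the ATP synthase, lets the protons back in and forms ATP. Complexes I, III, IV and V combine subunits encoded by nuclear genes with a few encoded by mitochondrial DNA, and dedicated assembly factors put them together. In the adrenal cortex the mitochondria also hold steroid-making enzymes, which draw their electrons from NADPH through ferredoxin, whereas the pituitary makes peptide hormones in secretory granules.

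Levels are the authors' deposited FPKM, fragment counts scaled for transcript length and by 1 factor per library. Unless a sentence says otherwise, the 4 values of a tissue stand in the order stressed Chinese Field Dog, unexposed Chinese Field Dog, stressed Beagle, unexposed Beagle. Libraries held 14327356 to 15756311 recovered reads in pituitary and 15803901 to 18712035 in adrenal cortex. The tissue labels matched their markers. The 6 adrenal cortex markers with a row summed to 31.4 to 54.8 FPKM in the pituitary libraries and 12895 to 16872 FPKM in the adrenal cortex libraries, and MC2R, the ACTH receptor, was listed at 0 in all 4 pituitary libraries. The 9 pituitary markers with a row summed to 82119 to 165662 FPKM in the pituitary libraries and 31.2 to 53.8 FPKM in the adrenal cortex libraries. The extraction protocol in the labels names spleen, which neither tissue label does. The stressed Chinese Field Dog pituitary stood apart. Its 7 forebrain neuron markers summed to 1555 FPKM, against 130.2 to 135.6 FPKM in the other 3 pituitary libraries, and SLC17A7, a glutamate transporter of cortical neurons, had 203 FPKM there and 0.439 to 0.715 FPKM in the others. In the unexposed Beagle pituitary GH1 was listed at 0, while the other 3 pituitary libraries had 73846 to 81835 FPKM. The 8 adrenal medulla markers summed to 3191 and 3470 FPKM in the Chinese Field Dog adrenal cortex libraries and 4711 and 5585 FPKM in the Beagle ones. In whole tissue, fewer cells of a type and less RNA per cell cannot be told apart.

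The 60 genes comprised 27 of complex I, 8 of complex III, 8 of complex IV, 6 of complex V and 11 assembly factors and relatives of subunits. Just outside the read minimum lay NDUFC1, an accessory subunit of complex I, with 10 reads, and COX6A2, the heart and skeletal muscle form of a complex IV subunit, with 18 reads. The lowest gene inside it was ATP5A1 with 43 reads. The annotation of CanFam3.1 is thin in places, which bears on single genes. RefSeq's dog assembly UU_Cfam_GSD_1.0 held a gene of the same or a newer symbol for 56 of the 60, and for 5 of these it lay on another chromosome: NDUFB6, NDUFS4, COX7B2, ATP5A1 and the NDUFS8 row on chromosome 21. All 5 rows are short, from 243 bases (COX7B2) to 1657 bases (ATP5A1), so reads of a near-identical gene elsewhere may be counted there and their values are uncertain. ATP5A1 is a case in point. The alpha subunit of ATP synthase partners the beta subunit ATP5B, yet its row averaged 0.226 FPKM over the 8 libraries and ATP5B averaged 608 FPKM. ATP5A1 lay below the minimum mean of 1 FPKM and was not tested. Some other rows cover a wide stretch that may hold reads of neighbours. COX7C had 20619 reads but only 86.5 FPKM on average over a stretch of 112040 bases. UQCR11, over 68629 bases, had 471 reads but 269.8 FPKM. Levels were therefore compared mainly across libraries rather than across genes.

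Within complex I, the accessory subunits NDUFB2, NDUFA2 and NDUFB11 had the highest mean FPKM. NDUFB2 had 211, 211, 201 and 192 FPKM in the pituitary libraries, against 503, 356, 375 and 396 FPKM in the adrenal cortex libraries. NDUFA2 had 209, 228, 237 and 224 FPKM in the pituitary libraries, against 345, 244, 242 and 258 FPKM in the adrenal cortex libraries, and NDUFB11, of the membrane arm, had 146, 128, 131 and 126 FPKM in the pituitary libraries, against 392, 329, 327 and 329 FPKM in the adrenal cortex libraries. For all 3 every adrenal cortex library was above every pituitary library. Among the core subunits, which carry the flavin and iron-sulfur clusters, NDUFV1, the NADH-binding subunit, had 31.8, 23.9, 22.3 and 23.4 FPKM in the pituitary libraries, against 52.4, 45.9, 45.9 and 48.0 FPKM in the adrenal cortex libraries. The lowest complex I row was the NDUFS8 copy on chromosome 21, at 1.32 ± 0.475 FPKM in pituitary and 3.54 ± 0.442 FPKM in adrenal cortex (SD, n = 4 each).

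The highest members of complex III, by FPKM, were its small subunits UQCR10, UQCRH and UQCR11. UQCR10 had 548, 481, 531 and 508 FPKM in the pituitary libraries, against 938, 744, 678 and 729 FPKM in the adrenal cortex libraries. UQCRH, the hinge protein next to cytochrome c1, had 335, 267, 277 and 260.1 FPKM in the pituitary libraries, against 473, 327, 363 and 417 FPKM in the adrenal cortex libraries. The pituitary and adrenal cortex values of UQCRH overlapped in 1 library of each tissue, the stressed Chinese Field Dog pituitary lying above the unexposed Chinese Field Dog adrenal cortex. UQCR11 had 272, 187, 234 and 198 FPKM in the pituitary libraries, against 331, 379, 275 and 281 FPKM in the adrenal cortex libraries, on 35 to 104 reads a library.

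In complex IV the row named COX7B2 led, with 519, 446, 475 and 418 FPKM in the pituitary libraries, against 869, 580.0, 594 and 708 FPKM in the adrenal cortex libraries, but this is one of the short rows that RefSeq places elsewhere, and in humans COX7B2 is known as a testis form. COX5B, a matrix-side subunit that binds zinc, had 441, 336, 322 and 315 FPKM in the pituitary libraries, against 938, 709, 700.2 and 698 FPKM in the adrenal cortex libraries. COX8A, a small membrane subunit, had 409, 328, 311 and 289.7 FPKM in the pituitary libraries, against 528, 431, 407 and 446 FPKM in the adrenal cortex libraries. The tissues did not overlap for COX5B, while for COX8A the stressed Chinese Field Dog pituitary lay just above the stressed Beagle adrenal cortex.

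Complex V was led by ATP5B, the catalytic beta subunit, with 492, 369, 369 and 344 FPKM in the pituitary libraries, against 918, 808, 748 and 818 FPKM in the adrenal cortex libraries. ATP5J, a coupling factor in the peripheral stalk, had 384, 381, 387 and 343 FPKM in the pituitary libraries, against 872, 605, 656 and 666 FPKM in the adrenal cortex libraries. ATP5F1, subunit b of the same stalk, had 224, 219, 224 and 183 FPKM in the pituitary libraries, against 573, 435, 428 and 446 FPKM in the adrenal cortex libraries. All 3 were higher in every adrenal cortex library than in any pituitary library. The order of the members by mean FPKM was nearly the same in both tissues (Spearman's rho 0.97 across 59 genes, which are not independent replicates and share the libraries).

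**Figure D1:**
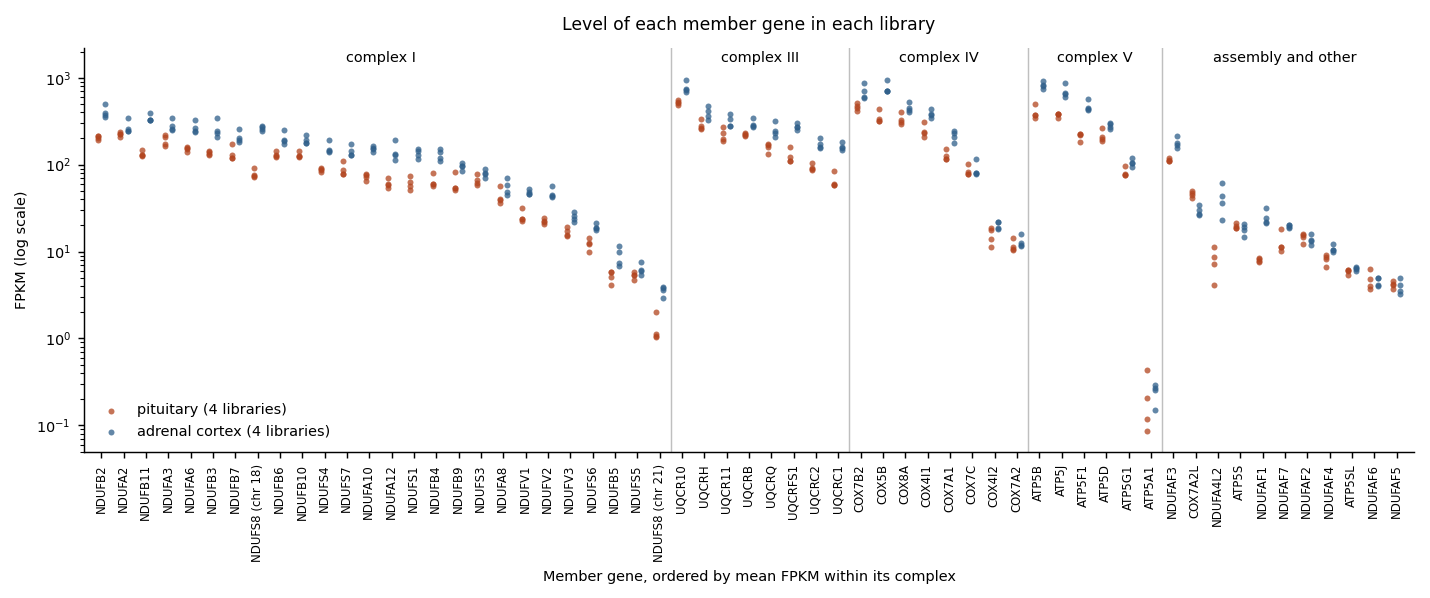
FPKM on a log axis of the 60 genes but 1 that is not reported, grouped by complex and ordered by mean FPKM, with 1 point per library, pituitary left of adrenal cortex within each gene. Most adrenal cortex points lie above the pituitary points, COX7A2L is the reverse, and the ATP5A1 row lies far below the other subunits, averaging 0.226 FPKM.

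Pituitary and adrenal cortex differed in most of these genes. Of the 59 tested, 46 were lower in pituitary and 1 was higher (limma on log2 of FPKM + 1, adjusted p under 0.05 over 14808 genes), where 31.0% of all genes tested were lower and 29.1% higher. The median log2 difference, pituitary minus adrenal cortex, was -0.64 over the 59 and -0.00 over all genes tested. In 43 of the 59 every pituitary library was below every adrenal cortex library (29.5% of all genes tested), and in 1 every pituitary library was above (28.5%). The single pairs of libraries of the same breed and exposure had medians of -0.71 (stressed Chinese Field Dog), -0.61 (unexposed Chinese Field Dog), -0.65 (stressed Beagle) and -0.68 (unexposed Beagle). Without the stressed Chinese Field Dog pituitary, the library with forebrain markers, 47 were lower, as were 4772 of the 14598 genes then tested.

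Complex I had the greatest number of lower members, 23 of 27, with a median log2 difference of -0.82. Of its 8 core rows 7 were lower, the exception being NDUFS3 (log2 -0.27 ± 0.10 SE, limma adjusted p = 0.0525), with 78.4, 58.1, 65.8 and 60.8 FPKM in the pituitary libraries, against 88.5, 70.6, 79.6 and 78.2 FPKM in the adrenal cortex libraries. NDUFS8, an iron-sulfur core subunit, had on chromosome 18 92.4, 72.9, 75.6 and 74.8 FPKM in the pituitary libraries, against 280.4, 274, 257 and 243 FPKM in the adrenal cortex libraries. The groups did not overlap and the log2 difference was -1.73 ± 0.09 (SE; limma adjusted p = 3.93e-05), the second largest among the members. NDUFS1, the largest core subunit, had 74.2, 63.0, 56.9 and 51.1 FPKM in the pituitary libraries, against 153, 144, 129 and 118 FPKM in the adrenal cortex libraries. Its log2 difference was -1.14 ± 0.07 (SE; limma adjusted p = 8.38e-05). Among the 19 accessory subunits 16 were lower in pituitary. NDUFB11 (values above) differed by log2 -1.37 ± 0.08 (SE; limma adjusted p = 6.61e-05). NDUFA12, near the peripheral arm, had 70.3, 60.4, 57.8 and 54.4 FPKM in the pituitary libraries, against 192, 133, 115 and 129.9 FPKM in the adrenal cortex libraries (log2 -1.19 ± 0.13 SE, limma adjusted p = 0.000581). The 3 accessory subunits that did not pass were NDUFA8, NDUFA2 and NDUFS5, at log2 -0.35 ± 0.16, -0.26 ± 0.14 and -0.19 ± 0.10 (SE).

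All 8 tested members of complex III were lower in pituitary, with a median log2 difference of -0.61. UQCRC1, a core subunit, had 85.2, 58.9, 59.1 and 58.2 FPKM in the pituitary libraries, against 183, 159, 155 and 149 FPKM in the adrenal cortex libraries. The groups were well apart (log2 -1.30 ± 0.11 SE, limma adjusted p = 0.000212). UQCRFS1, the Rieske iron-sulfur protein that takes electrons from ubiquinol, had 158, 123, 109.9 and 109 FPKM in the pituitary libraries, against 302, 271, 249 and 270.4 FPKM in the adrenal cortex libraries (log2 -1.13 ± 0.11 SE, limma adjusted p = 0.000369). The small subunits differed less, from log2 -0.65 ± 0.13 (SE) for UQCRQ to -0.41 ± 0.10 for UQCRB. For UQCR11 the limma adjusted p was 0.0249, but on the recovered reads edgeR gave 0.059 and DESeq2 0.121. UQCRH (limma adjusted p = 0.0261) lost its call when any of 5 single libraries was left out, with limma adjusted p from 0.0526 to 0.0818.

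Complex IV had 5 of 8 members lower, with a median log2 difference of -0.50. COX5B showed the largest difference, log2 -1.11 ± 0.10 (SE; limma adjusted p = 0.000338). COX4I1, the regulatory subunit of most tissues, had 310.3, 211, 229 and 235 FPKM in the pituitary libraries, against 437, 342, 378 and 374 FPKM in the adrenal cortex libraries (log2 -0.64 ± 0.12 SE, limma adjusted p = 0.00538). COX7A1, known as the heart and skeletal muscle form, was lower as well (log2 -0.76 ± 0.15 SE, limma adjusted p = 0.0055), and COX8A by less (log2 -0.44 ± 0.10 SE, limma adjusted p = 0.0117). Not passing were COX7C (log2 -0.05 ± 0.12 SE), COX7A2 (log2 -0.14 ± 0.11) and COX4I2 (log2 -0.40 ± 0.18, limma adjusted p = 0.104).

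All 5 tested members of complex V were lower, with a median of -0.89. ATP5F1 differed by log2 -1.14 ± 0.10 (SE; limma adjusted p = 0.000293), ATP5B by -1.07 ± 0.11 and ATP5J by -0.89 ± 0.11. ATP5D, the delta subunit of the catalytic head, differed by only -0.40 ± 0.13 (limma adjusted p = 0.0412). ATP5G1, 1 of the genes for the proton-carrying c ring, had 97.5, 78.4, 76.8 and 76.8 FPKM in the pituitary libraries, against 119, 104, 94.1 and 104 FPKM in the adrenal cortex libraries (log2 -0.35 ± 0.10 SE, limma adjusted p = 0.0231), and its call was lost on leaving out any of 6 single libraries (limma adjusted p 0.0527 to 0.0762).

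The assembly factors and relatives were mixed, 5 of 11 lower and 1 higher, with a median log2 difference of -0.08. NDUFAF1, an early assembly factor of complex I, had 7.88, 8.20, 8.50 and 7.49 FPKM in the pituitary libraries, against 31.4, 21.4, 24.1 and 22.1 FPKM in the adrenal cortex libraries. No other assembly factor among the members differed as much (log2 -1.50 ± 0.12 SE, limma adjusted p = 0.000165). NDUFAF3 (log2 -0.66 ± 0.11 SE), NDUFAF7, a methyltransferase (log2 -0.62 ± 0.16), and NDUFAF4 (log2 -0.36 ± 0.11) were also lower. NDUFAF2, NDUFAF5, NDUFAF6, ATP5S and ATP5SL had log2 differences between -0.08 and 0.11 and did not pass. The one member higher in pituitary was COX7A2L, a relative of COX7A2 that in mice and humans joins complex III and complex IV into supercomplexes. In CanFam3.1 its row, ENSCAFG00000032040, lies at chr17:33953590-33977079. It had 47.2, 40.9, 45.0 and 49.3 FPKM in the pituitary libraries, against 34.7, 30.3, 26.6 and 26.8 FPKM in the adrenal cortex libraries. The groups did not overlap, and the log2 difference was 0.61 ± 0.12 (SE; limma adjusted p = 0.00531), higher in 4 of 4 pairs of libraries. Its log2 difference stayed between 0.52 and 0.69 when single libraries were left out, and was 0.66 with edgeR and with DESeq2 on the recovered reads.

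**Figure D2:**
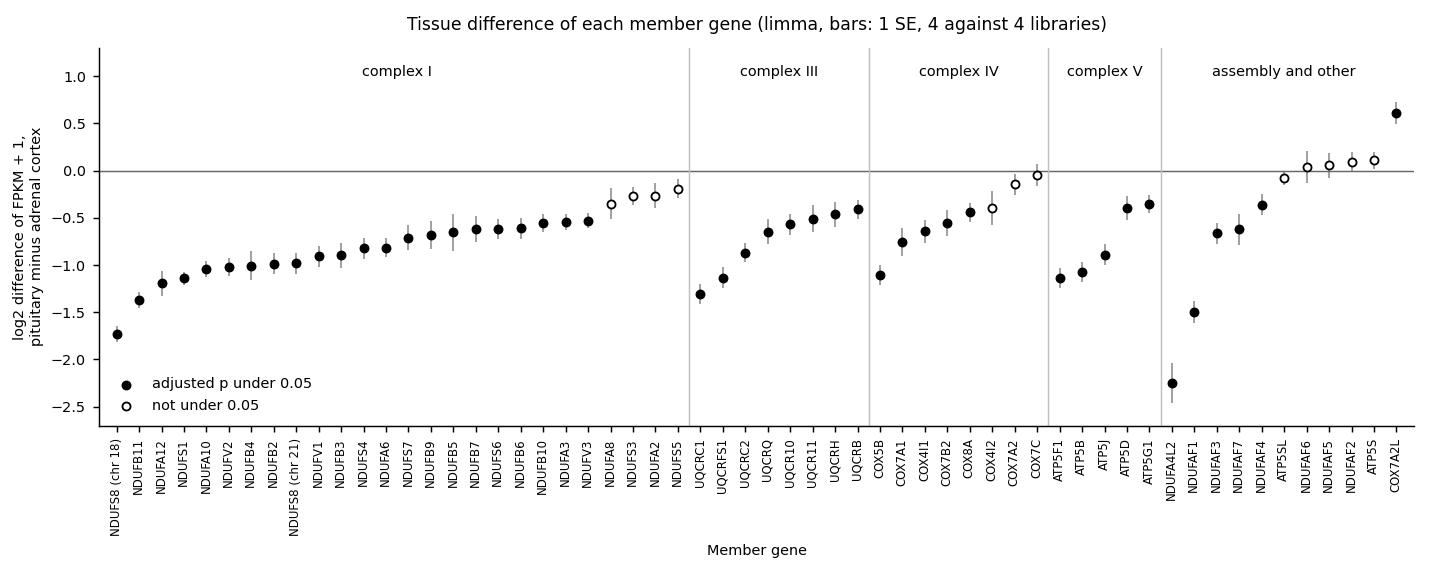
Log2 difference of FPKM + 1, pituitary minus adrenal cortex, for the 59 tested genes but 1 that is not reported, with bars of 1 SE from limma over 4 against 4 libraries and filled points for adjusted p under 0.05. Values run from -2.25 (NDUFA4L2) to 0.61 (COX7A2L), and every tested member of complexes III and V is filled and below 0.

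Other genes of the same machinery, taken from lists drawn up with the members, were set beside them. Complex II, succinate dehydrogenase, which feeds electrons from the citrate cycle, had all 3 tested genes lower in pituitary, SDHA (log2 -0.67), SDHB (log2 -1.20) and SDHC. SDHC had 96.5, 76.8, 87.4 and 70.2 FPKM in the pituitary libraries, against 370.2, 273, 263 and 285 FPKM in the adrenal cortex libraries (log2 -1.83). CYC1, cytochrome c1, was lower (log2 -1.60), and CYCS, the mobile cytochrome c, did not pass (log2 -0.18, limma adjusted p = 0.525). Of further assembly factors, 8 of 8 for complex I, 9 of 15 for complex IV and 3 of 5 for complex III (UQCC1, UQCC2 and BCS1L) were lower, and TTC19 of complex III was higher (log2 0.56). Among citrate cycle genes 9 of 11 were lower (median log2 -0.81). All 13 mitochondrially encoded genes were lower too (median log2 -1.59), from log2 -2.32 (MT-ND2) to -1.17 (MT-ND6). TMEM70, which helps assemble complex V, and its inhibitor ATPIF1 were lower, the other 3 of that list not passing. For regulators of mitochondrial biogenesis the counts lay near the shares over all genes tested, 31.0% lower and 29.1% higher. Of these 13 regulators 4 were lower, TFB2M (log2 -1.25), ESRRA (-0.39), PPRC1 (-0.32) and YY1 (-0.28), and 3 were higher. The higher ones were NRF1 (log2 0.55), PPARGC1A, a coactivator of mitochondrial genes (2.57, 2.92, 3.34 and 2.66 FPKM in the pituitary libraries, against 1.17, 0.886, 0.392 and 0.723 FPKM in the adrenal cortex libraries; log2 1.12), and ESRRG, a nuclear receptor (log2 2.09). The difference was not confined to mitochondrial genes: of 72 cytosolic ribosomal protein genes 68 were lower in pituitary, with a median log2 difference of -1.10.

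In shares of reads, the 60 genes took 0.457%, 0.404%, 0.382% and 0.397% of the reads in genes in the pituitary libraries, against 0.643%, 0.596%, 0.531% and 0.565% in the adrenal cortex libraries. As a share of reads from nuclear genes alone the ranges were 0.404% to 0.495% in pituitary and 0.616% to 0.752% in adrenal cortex. The tissues did not overlap on either base of reads. The 13 mitochondrially encoded genes took 7.40%, 4.47%, 5.34% and 3.92% in the pituitary libraries, against 14.2%, 10.4%, 13.7% and 10.2% in the adrenal cortex libraries. Per read of a nuclear member there were 9.86 to 16.2 mitochondrially encoded reads in pituitary and 17.4 to 25.8 in adrenal cortex. The FPKM of all genes summed to 8.78e+05 to 1.09e+06 in the pituitary libraries and 1.34e+06 to 1.71e+06 in the adrenal cortex libraries. The mean pituitary total was 0.677 of the adrenal cortex mean, beside 0.59 for the summed FPKM of the 60 genes. As a share of total FPKM the 60 genes overlapped between the tissues. They had 6908 of 8.78e+05 FPKM in the unexposed Chinese Field Dog pituitary and 11099 of 1.44e+06 in the stressed Beagle adrenal cortex.

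**Figure D3:**
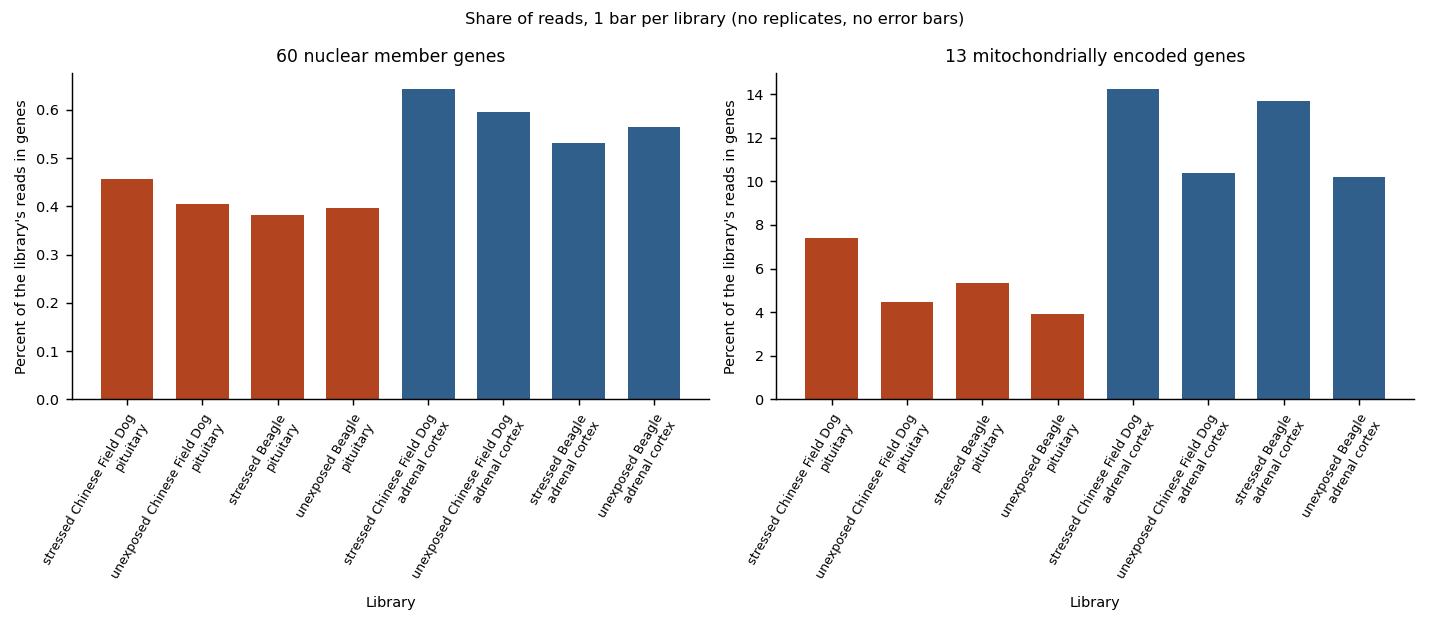
Percent of each library's reads in genes that fell on the 60 nuclear member genes (left) and on the 13 mitochondrially encoded genes (right), 1 bar per library with no replicates, pituitary left of adrenal cortex. On the right every stressed bar is above the unexposed bar of the same breed and tissue, whereas on the left the stressed Beagle bars are below the unexposed Beagle bars.

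None of the 59 tested genes passed the test for stress in either tissue, with 2 libraries on each side. In the pituitary 0 were called higher (0.00675% of all genes tested) and 0 lower (0.0%) by limma, with 0 at an unadjusted p under 0.05, where 4.47% of all genes tested were. In the adrenal cortex the counts were again 0 higher (0.00675%), 0 lower (0.0%) and 0 at an unadjusted p under 0.05 (2.98%). EdgeR and DESeq2 on the recovered reads also called 0 members in each tissue, with 0 at an unadjusted p under 0.05. Over all 14808 genes edgeR called 0 in either tissue. DESeq2 called 59 higher and 5 lower in pituitary and 2 and 8 in adrenal cortex. At an unadjusted p under 0.05 were 5.29% (edgeR) and 4.22% (DESeq2) of all genes tested in pituitary, and 3.54% and 2.57% in adrenal cortex. The median log2 difference, stressed minus unexposed, was 0.15 in pituitary and 0.13 in adrenal cortex (all genes tested -0.01 and 0.00). In the same adrenal cortex comparison the fitted differences of all 8 adrenal medulla markers (median log2 -0.44) and all 5 tested glia markers (median log2 -0.45) were below 0, none of them passing, and their part was not tested. On simulated data of this design limma recovered 5 of 50 genes changed 1.5-fold in the pituitary stress comparison and 39 of 50 changed 2-fold. The simulation gave every gene a dispersion of 0.02, changed only genes with many reads and held no outlying library. Recovery in these data may therefore differ.

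Breed by breed there was 1 library against 1 and so no test. In the Chinese Field Dog adrenal cortex 54 of 59 were higher in the stressed library (49.8% of all genes tested), with a median log2 ratio of 0.32, a 1.25-fold difference. In the Beagle adrenal cortex 21 of 59 were higher (48.6%), with a median of -0.06. In the Chinese Field Dog pituitary 48 of 59 were higher in the stressed library (45.6%; median 0.22), and in the Beagle pituitary 38 of 59 (49.2%; median 0.04). Few ratios were large: 1.5-fold or more higher were 3, 0, 1 and 0 members in the Chinese Field Dog pituitary, Beagle pituitary, Chinese Field Dog adrenal cortex and Beagle adrenal cortex (13.0%, 3.84%, 3.3% and 2.32% of all genes tested). Lower by as much were 2, 0, 1 and 0 (5.93%, 2.91%, 3.42% and 6.02%), namely NDUFA4L2 in both Chinese Field Dog pairs and COX4I2 in the pituitary. With FPKM rescaled to an equal total of scaled counts (reads times 1 factor per library) from nuclear genes, 43, 24, 49 and 22 members were higher in the same order of pairs. The members' medians were then 0.136, -0.0177, 0.21 and -0.0488, and those of all genes tested -0.108, -0.0543, -0.0856 and 0.00284. This rescaling changes the scale of each whole library and does not only take out mitochondrially encoded reads. The difference between the breeds' ratios has no replicates and was not tested.

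In the Chinese Field Dog adrenal cortex the shift ran through every complex. Stressed above unexposed stood 26 of 27 members of complex I (median log2 ratio 0.35), 7 of 8 of complex III (0.32), 7 of 8 of complex IV (0.43), 5 of 5 of complex V (0.19) and 9 of 11 of the assembly factors and relatives (0.19). COX5B had 938 FPKM in the stressed library and 709 FPKM in the unexposed one (log2 ratio 0.40, 95% counting interval 0.32 to 0.47), while the Beagle libraries had 700.2 FPKM stressed and 698 FPKM unexposed. NDUFB5, an accessory subunit with 81 to 182 reads a library, had the largest ratio (11.7 FPKM stressed and 6.75 FPKM unexposed; log2 0.71). In the same pair 69 of 72 cytosolic ribosomal protein genes were also higher (median log2 0.52), as were 12 of 13 mitochondrially encoded genes (0.67) and 3 of 3 of complex II (0.44). The FPKM of all genes summed to 1.71e+06 in the stressed library and 1.36e+06 in the unexposed one. In the Beagle adrenal cortex, where the members' median was -0.06, the sums were 1.44e+06 stressed and 1.34e+06 unexposed. The part of these genes and of the FPKM total in the members' shift was not tested.

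The stressed Chinese Field Dog library was the one that stood high in each tissue. Of the 59 members 43 had their highest of 4 pituitary values there (33.5% of all genes tested), and 52 their highest of 4 adrenal cortex values (30.6%). The 3 pituitary members past 1.5-fold in that pair were NDUFB9, an accessory subunit (82.9 FPKM stressed and 50.6 FPKM unexposed), NDUFAF7 (18.2 and 11.2 FPKM) and NDUFAF6 (6.32 and 3.68 FPKM), all named after their values were seen. Forebrain neuron markers (7 of 7) and glia markers (7 of 7) were also higher in that stressed pituitary library, at summed levels of 1555 FPKM stressed and 130.2 FPKM unexposed for neurons and 555 FPKM stressed and 113 FPKM unexposed for glia. The FPKM of all genes summed to 1.09e+06 in that stressed library and 8.78e+05 in the unexposed one. The part of these markers and of the FPKM total in the pituitary shift was not tested. Cytosolic ribosomal protein genes ran the other way there, 64 of 72 being lower in the stressed library (median log2 -0.19).

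Of the 59 members 8 were higher in the stressed library of all 4 pairs (5.77% of all genes tested): NDUFS1, NDUFS3, NDUFS8 on chromosome 18, NDUFA3, NDUFV3, UQCRC1, COX5B and ATP5S, the last known as coupling factor B. The mitochondrially encoded genes together took a larger share of reads in the stressed library of every pair (shares above). Among the members with the largest fitted stress differences, UQCR11 had log2 0.39 ± 0.15 (SE; limma adjusted p = 0.881) in pituitary and -0.11 ± 0.15 in adrenal cortex, where edgeR and DESeq2 on the recovered reads gave 0.02 and 0.03, of the opposite sign. The difference between those, log2 0.50 ± 0.21 (SE), was the largest of any member in size and did not pass (limma adjusted p = 0.933). COX7A1 ran the other way, with log2 -0.12 ± 0.19 in pituitary and 0.31 ± 0.19 in adrenal cortex (SE; limma adjusted p of the difference = 0.933). NDUFAF1 (log2 0.33 ± 0.17), COX7A1 and NDUFA6 (log2 0.30 ± 0.16) led the adrenal cortex, and NDUFB9 (log2 0.34 ± 0.23) and NDUFA8 (log2 0.29 ± 0.27) followed UQCR11 in the pituitary; none passed. At the low end, after NDUFA4L2, stood NDUFAF2 (log2 -0.19 ± 0.17 SE) in adrenal cortex, and COX4I2 (log2 -0.16 ± 0.30) and NDUFB5 (log2 -0.13 ± 0.33) in pituitary. Between the tissues, pituitary minus adrenal cortex, the stress difference was also high for NDUFAF7 (log2 0.25 ± 0.33) and NDUFB4 (log2 0.24 ± 0.35) and low for NDUFAF3 (log2 -0.32 ± 0.22) and NDUFB5 (log2 -0.30 ± 0.46), none of them passing.

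No member passed the test between the breeds either, and these comparisons share their libraries with those of stress. Chinese Field Dog against Beagle, limma called 0 members higher in pituitary (0.00675% of all genes tested) and 0 lower (0.0135%), and in adrenal cortex 0 higher (0.027%) and 0 lower (0.00675%). At an unadjusted p under 0.05 there were 0 in pituitary (7.93% of all genes tested) and 1 in adrenal cortex (6.48%), NDUFA4L2. EdgeR and DESeq2 on the recovered reads called 0 members in both tissues. At an unadjusted p under 0.05 were 2 members (edgeR, 8.79% of all genes tested) and 1 (DESeq2, 6.59%) in pituitary. In adrenal cortex there was 1 with each tool (7.58% and 5.22%). Over all 14808 genes DESeq2 called 192 higher and 28 lower in pituitary and 47 and 51 in adrenal cortex. EdgeR called 3 higher in pituitary and 0 otherwise. The median log2 difference, Chinese Field Dog minus Beagle, was 0.13 in pituitary and 0.14 in adrenal cortex (all genes tested -0.02 in both). The difference of the breed effect between the tissues was called for 0 members (0.00675% of all genes higher, 0.027% lower). That of the stress effect was also called for 0 (0.00675% each way). At an unadjusted p under 0.05 there were 0 members for either (5.0% of all genes tested for breed, 3.55% for stress). EdgeR and DESeq2 called 0 members. Over all genes tested DESeq2 called 60 higher and 3 lower for breed and 26 and 1 for stress, and edgeR called 0 for either.

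Between single libraries, 1 against 1 and so with no test, the breeds were set side by side at each exposure. In the stressed adrenal cortex 55 of 59 members were higher in the Chinese Field Dog (47.7% of all genes tested; median log2 ratio 0.30), 5 of them by 1.5-fold or more (4.58%; NDUFA12, NDUFB3, NDUFA8, UQCRQ and NDUFB5) against NDUFA4L2 alone lower by as much (5.25%), and in the unexposed adrenal cortex 20 of 59 (43.5%; median -0.04). In the stressed pituitary the count was 47 of 59 (45.4%; median 0.25), and in the unexposed pituitary 36 of 59 (47.2%; median 0.04). Rescaled by nuclear genes as above, the unexposed adrenal cortex had 36 of 59 higher. The members' median was then 0.0317 and that of all genes tested 0.0302, where it had been -0.0303 before rescaling. Whether the breeds differed more under stress than without it was not tested. In the stressed pituitary all 7 forebrain neuron markers and all 7 glia markers were also higher in the Chinese Field Dog, at summed levels of 1555 FPKM in the Chinese Field Dog and 133 FPKM in the Beagle for neurons, and 555 FPKM in the Chinese Field Dog and 67.4 FPKM in the Beagle for glia. In that pair 64 of 72 cytosolic ribosomal protein genes were lower (median log2 -0.32), and the part of either in the members' difference was not tested. The largest ratio in the stressed adrenal cortex was that of NDUFA12, with 192 FPKM in the Chinese Field Dog and 115 FPKM in the Beagle (log2 0.74, 95% counting interval 0.65 to 0.84). Without stress NDUFA12 had 133 FPKM in the Chinese Field Dog and 129.9 FPKM in the Beagle. In the fit over both exposures the leading members in adrenal cortex were NDUFA12 (log2 0.39 ± 0.22 SE), NDUFB3 (0.38 ± 0.20) and UQCR11 (0.35 ± 0.15). In pituitary they were NDUFAF7 (log2 0.39 ± 0.24 SE), UQCRFS1 (0.34 ± 0.17) and NDUFA8 (0.34 ± 0.27). None passed, the smallest limma adjusted p of these 6 being 0.641. NDUFS1 was higher in the Chinese Field Dog in both tissues, at log2 0.34 ± 0.12 in pituitary and 0.27 ± 0.12 in adrenal cortex (SE; limma adjusted p = 0.631 and 0.782). The lowest, after NDUFA4L2, were ATP5SL (log2 -0.08 ± 0.13) and COX7A1 (-0.07 ± 0.19) in adrenal cortex, and COX4I2 (-0.11 ± 0.30) and NDUFAF4 (-0.11 ± 0.18) in pituitary. The breed difference in pituitary minus that in adrenal cortex was highest for NDUFA4L2 (log2 0.64 ± 0.40 SE), NDUFAF7 (0.37 ± 0.33) and NDUFB9 (0.31 ± 0.33). It was lowest for COX7A2L (-0.37 ± 0.22), NDUFA2 (-0.29 ± 0.28) and UQCR11 (-0.28 ± 0.21, with 0.10 by edgeR and 0.13 by DESeq2), and none passed. All 8 adrenal medulla markers had lower levels in the Chinese Field Dog adrenal cortex (median log2 -0.79), beside which the members' breed differences there stand; their part was not tested.

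**Figure D4:**
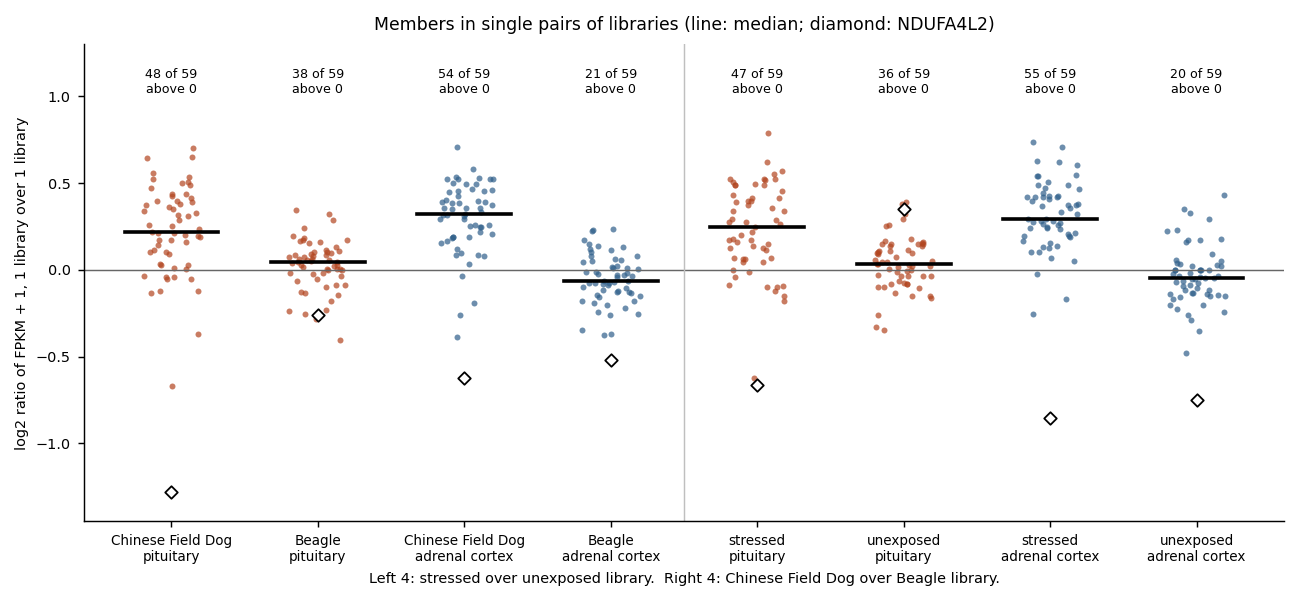
Log2 ratio of FPKM + 1 of the 59 tested genes in 8 single pairs of libraries, the left 4 stressed over unexposed and the right 4 Chinese Field Dog over Beagle, with the median as a line and NDUFA4L2 as a diamond. The pairs that contain a stressed Chinese Field Dog library have medians of 0.22 to 0.32 and the other pairs -0.06 to 0.04, while NDUFA4L2 lies below 0 in 7 of the 8 pairs.

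NDUFA4L2 did not follow the other members. It is a relative of NDUFA4 that is induced in low oxygen in human and mouse cells, where it lowers the activity of complex I, and in mice it is abundant in pericytes and in the oxygen-sensing cells of the carotid body. In CanFam3.1 its row, ENSCAFG00000000200, lies at chr10:1357229-1463472, a stretch of 106244 bases that may hold reads of neighbours. It had 4.11, 11.4, 7.10 and 8.71 FPKM in the pituitary libraries, against 23.4, 36.5, 43.0 and 62.0 FPKM in the adrenal cortex libraries. The tissues did not overlap, and its log2 difference, -2.25 ± 0.21 (SE; limma adjusted p = 0.000359), was the largest of the members. It was also the only member of 59 lower in the stressed library of all 4 pairs, where 6.76% of all genes tested were, and it was the lowest member in 3 of them. In the Chinese Field Dog pituitary the log2 ratio was -1.28 (95% counting interval -2.94 to -0.17), in the Beagle pituitary -0.26 (-1.60 to 0.82), in the Chinese Field Dog adrenal cortex -0.62 (-1.30 to -0.05) and in the Beagle adrenal cortex -0.52 (-0.93 to 0.01). These rest on 7 to 21 reads a library in pituitary and 34 to 89 in adrenal cortex, and the intervals cover counting error only. Fitted over both breeds the stress difference was log2 -0.77 ± 0.28 in pituitary and -0.57 ± 0.28 in adrenal cortex (SE; limma adjusted p = 0.881 and 1), and neither passed. The pituitary value was -0.26 without either Chinese Field Dog library and -1.28 without either Beagle one, which are the single-pair ratios above.

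Between the breeds NDUFA4L2 was lower in the Chinese Field Dog adrenal cortex at both exposures, at log2 -0.80 ± 0.28 (SE; limma adjusted p = 0.762), a difference that did not pass. Its 4 adrenal cortex values stood in the same order as the summed adrenal medulla markers, which were 3191, 3470, 4711 and 5585 FPKM. DBH, which makes noradrenaline, had 239, 331, 467 and 758 FPKM. The summed smooth muscle and pericyte markers did not share that order, with 506, 413, 394 and 423 FPKM. With 4 libraries no relation was tested.

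COX4I2, the form of the regulatory subunit of complex IV that is known from lung and low oxygen, had 11.2, 18.5, 17.8 and 13.8 FPKM in the pituitary libraries, against 18.2, 22.0, 21.9 and 18.6 FPKM in the adrenal cortex libraries. It amounted to 3.62%, 8.76%, 7.76% and 5.88% of the COX4I1 FPKM in the pituitary libraries, against 4.17%, 6.45%, 5.79% and 4.98% in the adrenal cortex libraries. The stressed Chinese Field Dog library had the lowest COX4I2 value and the highest COX4I1 value of each tissue. The stress ratios of COX4I2 pointed opposite ways in the breeds, at log2 -0.67 in the Chinese Field Dog pituitary (95% counting interval -1.10 to -0.34) and 0.34 in the Beagle pituitary (-0.00 to 0.71), and in adrenal cortex at -0.26 (Chinese Field Dog) and 0.22 (Beagle). That difference was not tested. COX7A1 had 116, 150.4, 126 and 115 FPKM in the pituitary libraries, against 244, 179, 232 and 206 FPKM in the adrenal cortex libraries, and COX7A2, the form of most tissues, had 14.4, 10.6, 10.5 and 11.2 FPKM in the pituitary libraries, against 16.1, 11.5, 12.7 and 11.9 FPKM in the adrenal cortex libraries. Muscle markers summed to 11.7 to 19.2 FPKM in pituitary and 8.46 to 12.1 FPKM in adrenal cortex. No ratio of COX7A1 to COX7A2 is drawn, because the COX7A1 row held 1276 reads in all and the COX7A2 row 3401, against the order of their FPKM, so the ratio rests on the lengths assigned to the rows.

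**Figure D5:**
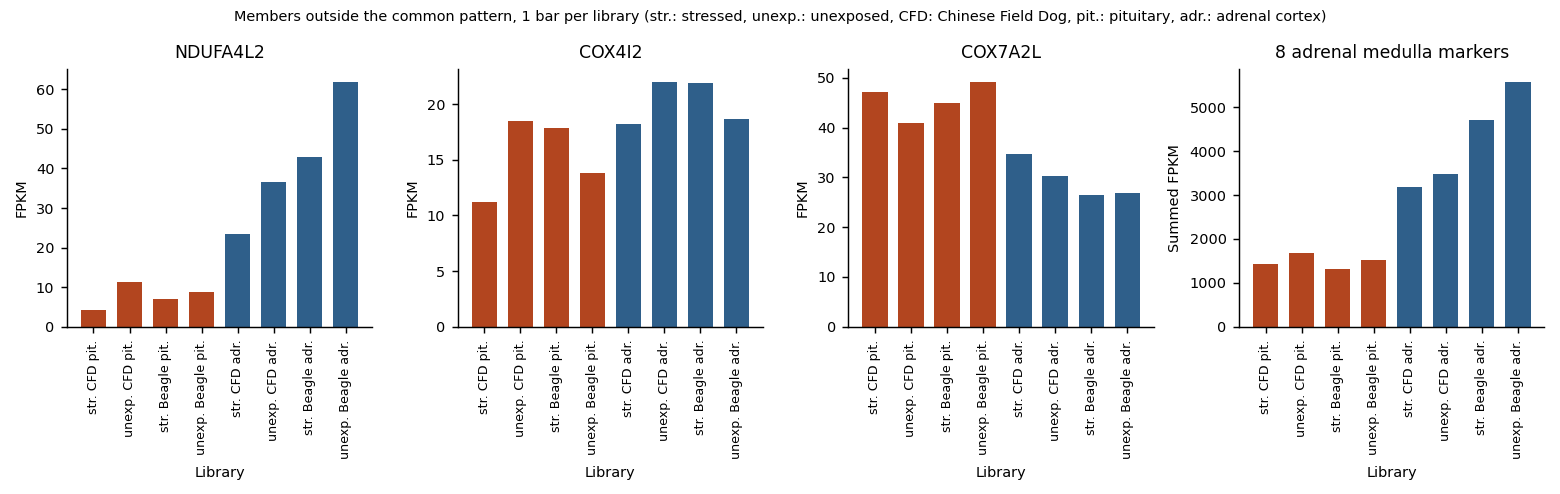
FPKM of NDUFA4L2, COX4I2 and COX7A2L and the summed FPKM of 8 adrenal medulla markers, 1 bar per library with no replicates, pituitary left of adrenal cortex. NDUFA4L2 runs from 4.11 FPKM in the stressed Chinese Field Dog pituitary to 62.0 FPKM in the unexposed Beagle adrenal cortex, and COX7A2L is higher in every pituitary bar. The 4 adrenal cortex bars of NDUFA4L2 and of the medulla markers stand in the same order. The summed forebrain neuron and erythroid markers, not drawn, share that order in adrenal cortex.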

How the data were processed

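Each of the 8 libraries was sequenced on the Illumina GA IIx from a TruSeq mRNA library, per the labels, and reads were aligned to CanFam3.1 with TopHat, per the submitters' processing notes. The program that counted and the annotation release are not given in the sources used here. The authors deposited FPKM per gene together with scaled counts, a signal that is a read count multiplied by 1 factor per library. Dividing by the smallest step gave whole reads for 98.7% to 99.1% of values within a tolerance of 0.02, which holds for 6 libraries and is approximate for the stressed Chinese Field Dog pituitary and the stressed Beagle adrenal cortex. Columns of the same library repeated in other tables were identical in 16 of 16 cases.

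The 14808 genes with a mean of at least 1 FPKM entered limma (version 3.58.1, under R 4.3.3) as log2(FPKM + 1), so fold changes of low genes are understated, with Benjamini-Hochberg adjustment over all of them. Tissues were compared over all 8 libraries with breed and exposure as covariates (4 residual degrees of freedom), and stress and breed within each tissue (2 residual degrees of freedom), an additive fit in which the 2 libraries on a side differ in the other factor. edgeR 4.0.16 (TMM) and DESeq2 1.42.0 on recovered reads, a pseudocount of 0.1, no filter, a minimum of 50 reads, centring, a replicate block of breed and exposure and leaving out each library were the alternatives. On simulated data with a dispersion of 0.02 for every gene, limma recovered 25 of 50 genes changed 1.5-fold and 49 of 50 changed 2-fold between the tissues. Counting intervals (95%) cover counting error only.

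Genes named are the 3 highest of each complex by mean FPKM, the isoform pairs, the 10 largest tissue differences that pass, the 3 highest and 3 lowest of each stress, breed and between-tissue difference, the members nearest the read minimum, the 3 per tissue with the largest ratio of highest to lowest library, and, of other lists, genes that a count of 5 or fewer singles out and abundant ones. Others named were chosen after their values were seen. The members and lists were chosen with earlier results of these data known. Values of 1 member and 1 marker gene are not reported here, though both are kept in the counts, sums and medians. No sequences are shown.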

Additional observations from a re-analysis of the deposited data

Results flagged for a closer look

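Within each tissue's 4 libraries, 19 of 120 groups of values had 1 library far from the other 3, where chance gives about 1 in 20, and 1 of the 19 is not reported. The stressed Chinese Field Dog pituitary was high for ATP5B (492 FPKM), COX5B (441 FPKM), NDUFB10 (144 FPKM), ATP5G1 (97.5 FPKM), NDUFS8 on chromosome 18 (92.4 FPKM), UQCRC1 (85.2 FPKM), NDUFB9 (82.9 FPKM), NDUFAF7 (18.2 FPKM) and NDUFS8 on chromosome 21 (2.03 FPKM). For UQCRC1 the other 3 pituitary libraries had 58.2 to 59.1 FPKM. Forebrain neuron and glia markers were also high in that library, and their part was not tested.

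The stressed Chinese Field Dog adrenal cortex was high for COX5B (938 FPKM), ATP5F1 (573 FPKM), NDUFB11 (392 FPKM), NDUFA2 (345 FPKM), NDUFS4 (192 FPKM), COX7C (115 FPKM) and NDUFV2 (57.0 FPKM). For NDUFB11 the other 3 adrenal cortex libraries had 327 to 329 FPKM. The unexposed Beagle pituitary, the library with GH1 listed at 0, was low for ATP5F1 (183 FPKM, others 219 to 224) and ATP5J (343 FPKM, others 381 to 387).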

How the results depend on the processing

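The lower level of most members in pituitary held under each alternative run, with 1 higher member throughout. When single libraries were left out, 39 to 47 members were lower. The 39 came without the unexposed Chinese Field Dog pituitary, where 4031 of 14751 genes tested were lower, against 4597 of 14808 in the main run. Restricting the set to complexes I, III, IV and V left 41 lower and 0 higher. The replicate block of breed and exposure, in which each pair is 1 pituitary and 1 adrenal cortex library, gave 49 lower. With the block 4477 of 14808 genes tested were lower. Labels do not say that a pair is 1 animal. The median tissue difference was -0.72 when centred on the median gene, and -0.69 to -0.57 without single libraries. UQCR11 lost its tissue call with edgeR and DESeq2, and COX4I2 gained one with the block (limma adjusted p = 0.0246).

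Stress and breed gave 0 calls among the members under each alternative run that kept all 8 libraries. Leaving out 1 library of a tissue leaves the fit there to 1 pair of libraries. The medians then ran from -0.06 to 0.32 for stress in adrenal cortex, 0.04 to 0.22 for stress in pituitary, -0.04 to 0.30 for breed in adrenal cortex and 0.04 to 0.25 for breed in pituitary. The ends of these ranges are the single-pair medians given above and no separate check. With a 2-fold limit the members past the fold were 1 (stress, Chinese Field Dog pituitary), 0 (stress, Chinese Field Dog adrenal cortex), 0 (breed, stressed pituitary), 0 (breed, stressed adrenal cortex) and 0 (breed, unexposed adrenal cortex). Centring gave 3 for stress in the Chinese Field Dog pituitary. Rescaling by scaled counts from nuclear genes, added after seeing the data, gave 3 there and 3 for breed in the stressed adrenal cortex. These fold counts stand without a share over all genes tested. Members above 0 became 24 for stress in the Beagle pituitary and 36 for breed in the unexposed adrenal cortex. In those pairs the median of all genes tested moved as well, to -0.0543 and 0.0302.

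With edgeR and DESeq2 the sign turned for UQCR11 under stress in adrenal cortex (0.0207 and 0.0269), COX7A1 by breed in adrenal cortex (0.0579 and 0.0356) and UQCR11 by breed between the tissues (0.10 and 0.13). Leaving out single libraries turned the sign of further named genes, with these log2 ranges. Within a tissue the ends of a range are again the ratios of single pairs. For breed in pituitary these were -0.62 to 0.39 (COX4I2), -0.66 to 0.35 (NDUFA4L2), -0.35 to 0.14 (NDUFAF4) and -0.0053 to 0.79 (NDUFAF7). For stress in pituitary these were -0.67 to 0.34 (COX4I2), -0.40 to 0.14 (NDUFB5) and -0.0244 to 0.70 (NDUFB9). For breed in adrenal cortex these were -0.20 to 0.0713 (COX7A1). For stress in adrenal cortex these were -0.39 to 0.0086 (NDUFAF2). For breed between the tissues these were -0.0312 to 0.76 (NDUFAF7) and -0.0523 to 0.67 (NDUFB9). For stress between the tissues these were -0.15 to 0.64 (NDUFAF7), -0.11 to 0.59 (NDUFB4) and -0.84 to 0.24 (NDUFB5). The cause was not tested. With 1 library a group, depth and single libraries limit these values.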
